A study of Rattus norvegicus with 151 samples.

Results

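The 6 genes Cdkn1a, Mdm2, Ccng1, Bax, Gadd45a and Btg2, classical members of the p53 and DNA damage response, were followed by name in rat liver and kidney, taking for each the brightest probe set in a tissue that is annotated to no other gene, out of 14218 genes with a single symbol on the array. For 4 of the 6, Cdkn1a (probe set 1388674_at), Mdm2 (1383288_at), Ccng1 (1367764_at) and Gadd45a (1368947_at), such a probe set existed. The Bax probe set is also annotated to LOC681314 and was not used, and no probe set named for Btg2 was analysed here. All 4 measured genes passed the filter on low values in every fit, being above it in each of the 81 liver and 69 kidney arrays.

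The tumour suppressor p53 is a transcription factor that is stabilised when DNA is broken or otherwise damaged, and it then switches on genes that stop the cell cycle, repair DNA or start cell death. Cdkn1a encodes p21, which inhibits the cyclin-dependent kinases, and Mdm2 encodes the ubiquitin ligase that returns p53 to a low level. Ccng1 encodes cyclin G1, a partner of Mdm2 in that feedback, and Gadd45a encodes a stress sensor that acts in growth arrest and repair. Bax encodes a pore-forming protein of the mitochondrial death pathway, and Btg2 an antiproliferative cofactor. In rat liver these transcripts are used as a readout of genotoxic exposure, and Cdkn1a and Gadd45a also answer to fasting, stress hormones and time of day.

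The rats were males of the Harlan Sprague-Dawley strain, 6 to 8 weeks old, and got 5 daily doses by gavage in the mornings, as part of toxicology work after a chemical spill into a West Virginia river. The chemicals were 4-methylcyclohexanemethanol (MCHM), crude MCHM, the technical product that is mostly MCHM, and propylene glycol phenyl ether (PPH). The daily doses of MCHM and of its crude form were 0.1, 1 and 10 mg/kg and then 100, 300 and 500 mg/kg, while those of PPH were 1, 10, 100, 500 and 1000 mg/kg. Each chemical had a corn oil vehicle group of its own, and a chemical with its vehicle group is called a set below. Each array held the liver or kidney RNA of 1 rat, in 40 groups of 2 to 5 arrays, the smallest being the kidneys at the 4 lower doses of crude MCHM, with 2 each.

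Of 151 arrays 150 were used. The kidney array of replicate 13 at 0.1 mg/kg MCHM had a median correlation with other kidneys of only 0.401 and was left out, while the used arrays lay between 0.986 and 0.993. Liver markers such as albumin averaged between 5.00 and 6.14 log2 units in all used kidneys except 1 at 1 mg/kg crude MCHM (8.24) and 1 MCHM vehicle (7.38). In kidney no difference between doses or between vehicle groups was called for the 4 genes. Tissue homogenates were measured, so fewer cells with a transcript and less transcript per cell cannot be told apart.

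The p53 consensus decamer, the 10-base motif of which a response element holds a pair, was looked for in the 300 bases around the annotated start of each gene (250 before and 50 after it; RefSeq, GRCr8) to show what the sequence next to the start holds. Where the known p53 elements of these genes lie was not tested, and sequence farther upstream or in introns was not searched. A match was found for 3 of the 5 members with a window, Cdkn1a, Ccng1 and Gadd45a, and in 7.98% of 33469 windows of that length. The motif is its own reverse complement, so both strands were covered, and no mismatch was allowed. The matches, all before the start, are shown 5′ to 3′ on the strand of the gene, with the decamer in capitals:
Cdkn1a (chr20:7150721-7150750, plus strand): tggctttcagGAACATGTCTtgacttgttc
Ccng1 (chr10:25685089-25685118, minus strand): agacctgcccGGGCAAGCCTtggcattgaa
Gadd45a (chr4:97486828-97486857, minus strand): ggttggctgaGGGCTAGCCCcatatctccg
A match is a description of these letters and not a bound site, and binding was not measured. The windows of Mdm2 and Btg2 held none, which says nothing of p53 at other positions.

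The first question was whether any dose changed these transcripts, as genotoxic stress would. No member passed the threshold (limma, Benjamini-Hochberg adjusted p under 0.05 over all genes tested) in any of 136 comparisons of a dose with its own vehicle, that is 4 genes at 34 combinations of tissue, chemical and dose. The smallest adjusted p was 0.135. At an unadjusted p under 0.05 there were 9 of 136, where 7.83% of all gene comparisons lay under that value. The dose trend, a slope over the rank of the dose, gave 0 of 24 by limma, also 0 at an unadjusted p under 0.05, with a smallest adjusted p of 0.43. Of the 11216 to 11402 genes tested per trend, 1482 to 1929 in liver and 988 to 1461 in kidney lay under 0.05 unadjusted.

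Calls among all genes were few as well. In liver they came to 0.0265% of genes at 300 and 0.512% at 500 mg/kg MCHM, 1.01% at 300 and 0.675% at 500 mg/kg crude MCHM, and 0.00882% at 10, 0.0882% at 500 and 1.75% at 1000 mg/kg PPH. In kidney they came to 0.0177% at 500 mg/kg MCHM and 2.03% at 1000 mg/kg PPH, and all the other doses in both tissues had 0%. The trend was called for 2.38% (MCHM), 1.91% (crude MCHM) and 1.32% (PPH) of genes in liver and for 0.124%, 0% and 1.58% in kidney. These shares moved when 1 array was left out. In liver the called genes went from 58 to as few as 19 at 500 mg/kg MCHM. At 300 and 500 mg/kg crude MCHM they went from 115 to as few as 3 and from 77 to as few as 23. At 1000 mg/kg PPH they went from 199 to as few as 65 in liver and to as few as 97 in kidney. These are the lowest counts over such fits, and genes were still called in each. The highest count was above that with all arrays at 500 mg/kg crude MCHM in liver and 1000 mg/kg PPH in kidney. A count of 0 among 4 genes is therefore near the background in every comparison.

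**Figure D1:**
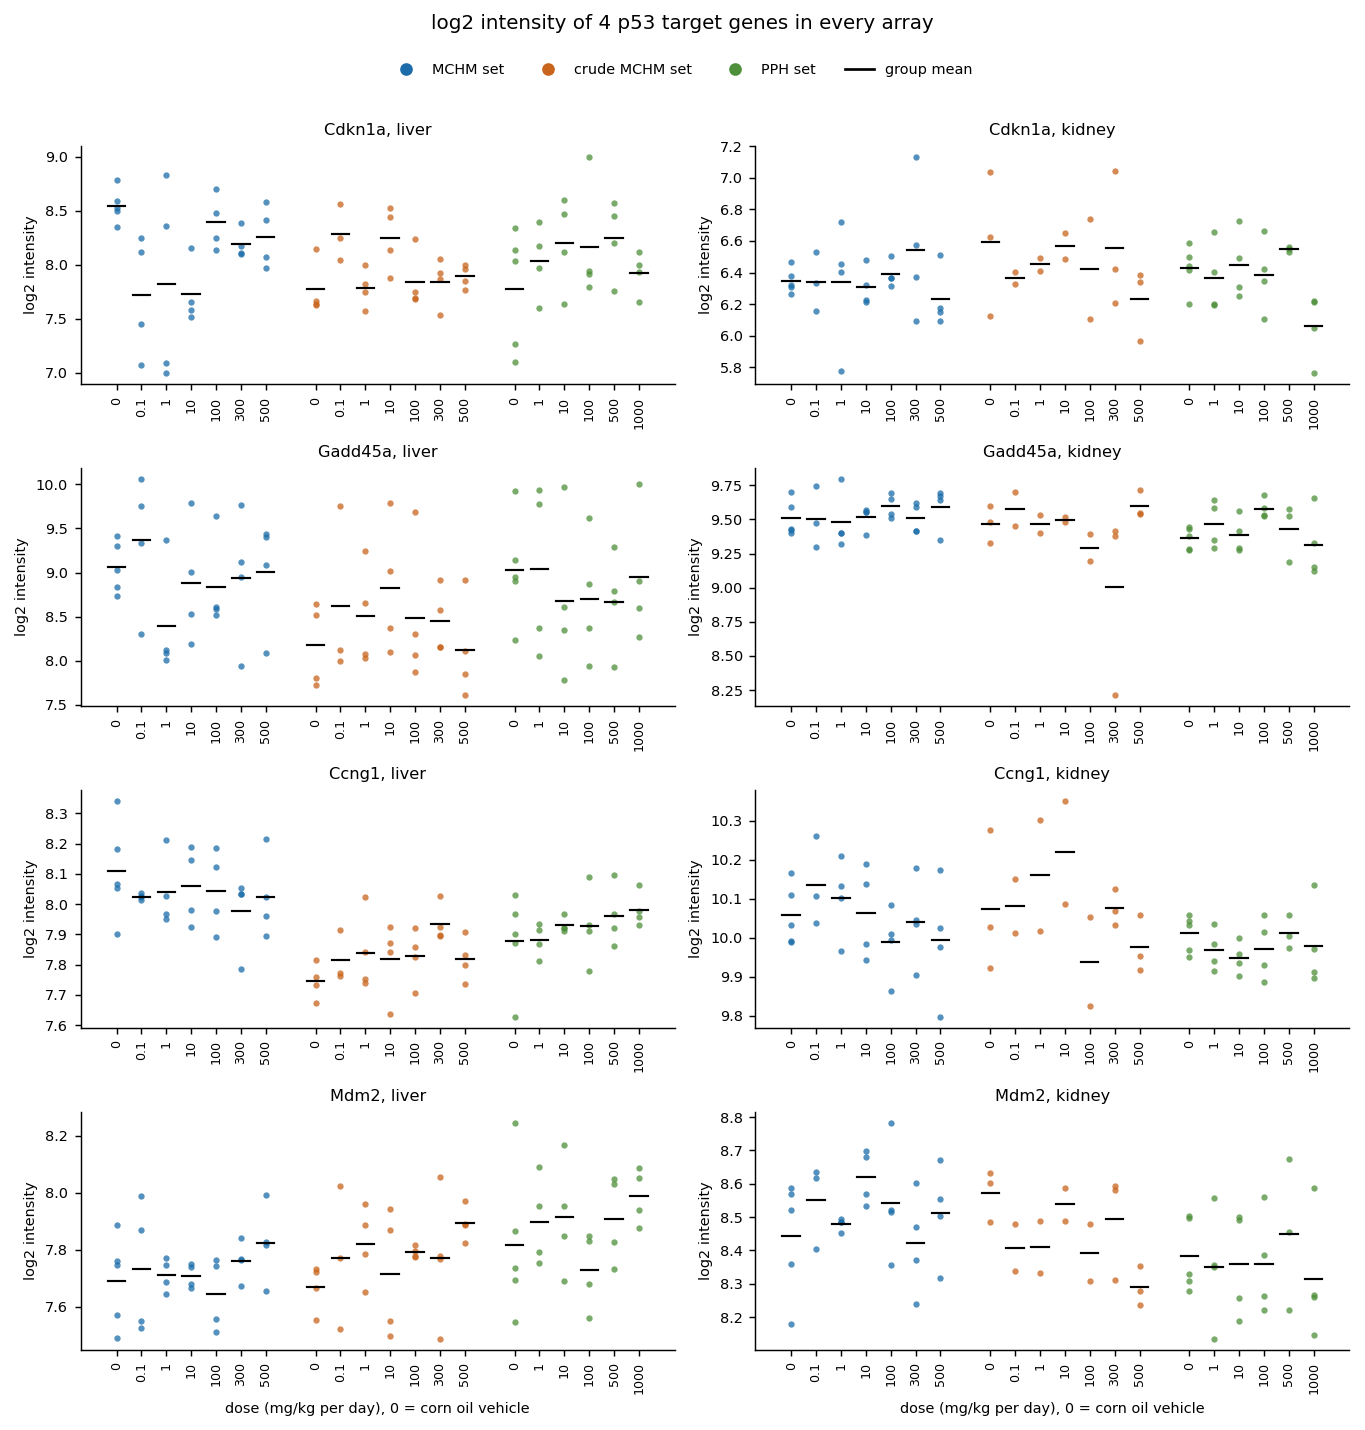
Log2 intensity (vertical axes) of Cdkn1a, Gadd45a, Ccng1 and Mdm2 in every array by daily dose in mg/kg (horizontal axes, 0 is the vehicle), with 1 point per rat, colours for the chemical sets and bars for group means. The points of liver Gadd45a and liver Cdkn1a are the most widely scattered within groups, those of Ccng1 and Mdm2 are narrow, and the groups at the highest doses overlap their vehicles for most genes.

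How much change the data would have shown differed between the genes. A 95% interval that stayed within a 1.5-fold difference in either direction was reached in 95 of the 136 comparisons, and within a 2-fold difference in 120. Over all genes tested the corresponding shares were 92.1% and 98.7% in liver and 88.7% and 97.6% in kidney. Mdm2 and Ccng1 stayed within 1.5-fold in all 17 comparisons in each tissue. Liver Gadd45a did so in 0 of 17 and stayed within 2-fold in 5, and liver Cdkn1a in 4 and 13. In kidney, Gadd45a stayed within 1.5-fold in 12 of 17 and Cdkn1a in 11, and both within 2-fold in all 17.

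**Figure D2:**
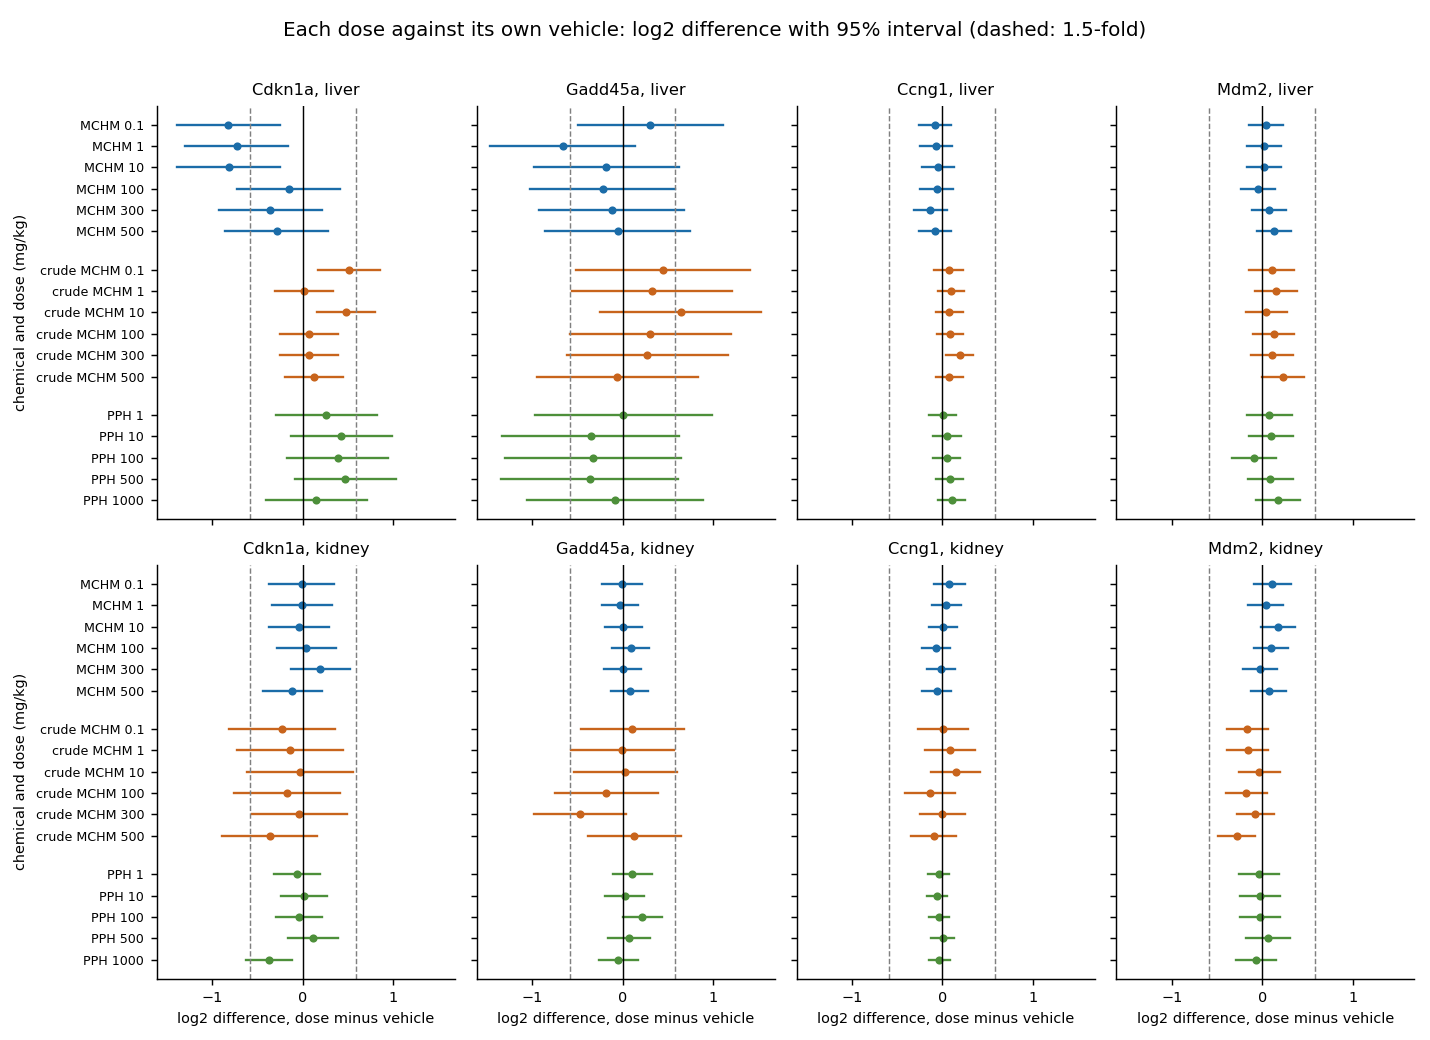
Difference of log2 means between each dose and its own vehicle (horizontal axes, log2 units) with its 95% interval from limma, by chemical and dose (vertical axes), for the 4 genes in liver and kidney; dashed lines mark a 1.5-fold difference. Every interval of Ccng1 and Mdm2 lies between the dashed lines, and none of the 17 intervals of liver Gadd45a does.

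Mdm2 and Ccng1, the feedback pair, were the only members with every interval within 1.5-fold. In PPH kidneys the within-group SD of Mdm2, 0.17, was about that of Gadd45a, 0.16. At 500 mg/kg MCHM, liver Mdm2 was 7.65, 7.82 and 7.99 log2 units (lowest, median and highest of 4) against 7.49, 7.75 and 7.89 in 5 vehicle livers. The difference was 0.13 ± 0.09 (SE), with an adjusted p of 0.567 (limma). The 2 groups overlapped.

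Under 500 mg/kg crude MCHM, liver Mdm2 read 7.97, 7.89, 7.89 and 7.82, all above the vehicle values of 7.73, 7.55, 7.66 and 7.72. The difference of 0.23 ± 0.11 (SE) did not pass the threshold (adjusted p = 0.389, limma). Of all genes 8.37% did not overlap with the vehicles at this dose. At 1000 mg/kg PPH, liver Mdm2 ran from 7.88 to 8.09 (n = 4) inside a vehicle range of 7.55 to 8.25 (n = 5), a difference of 0.17 ± 0.12. The fitted liver differences of Mdm2 were above 0 in 15 of 17 comparisons, but comparisons of a set share their vehicle, and none was over 0.23. With the other Mdm2 probe sets, liver differences ran from -0.20 to 0.18 (1383485_at) and from -0.27 to 0.27 (1384427_at).

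In kidney, Mdm2 leaned the other way under crude MCHM. At 500 mg/kg it read 8.24, 8.35 and 8.28, below all 3 vehicles at 8.63, 8.60 and 8.48. The difference was -0.28 ± 0.09 (SE), with an unadjusted p of 0.00949 and an adjusted p of 0.30 (limma). Both arrays at 0.1 mg/kg (8.48 and 8.34) and at 100 mg/kg (8.48 and 8.31) also lay below the vehicles, and those at 10 mg/kg (8.59 and 8.49) did not. In these small groups 19.5%, 13.1% and 18.6% of all genes did not overlap with the vehicles at 0.1, 100 and 500 mg/kg. A second Mdm2 probe set, 1384427_at, gave -0.26 at 500 mg/kg, and the dimmest of the 3, 1383485_at, gave 0.05 ± 0.31.

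Liver Ccng1 stayed between 7.63 and 8.34 log2 units in all groups. Its largest difference was at 300 mg/kg crude MCHM, where the values of 8.03, 7.92, 7.90 and 7.89 all lay above the vehicles at 7.81, 7.67, 7.73 and 7.76. The difference of 0.19 ± 0.07 (SE) had an adjusted p of 0.204 (limma), and at 500 mg/kg it was 0.07 ± 0.07. At 300 mg/kg 9.01% of all genes did not overlap with the vehicles. In kidney, where Ccng1 was brighter, its differences ran from -0.14 to 0.14, and its within-group SD in the PPH set, 0.07, was at percentile 3.12 of all genes tested.

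Gadd45a in liver varied most between rats of the same group. Vehicle livers of the PPH set alone ranged from 8.23 to 9.92 log2 units. At 1000 mg/kg PPH they ranged from 8.27 to 10.00 (n = 4), and the difference was -0.08 ± 0.47 (SE; adjusted p = 0.967, limma). At 500 mg/kg MCHM the 4 livers had a lowest value of 8.09, a median of 9.25 and a highest of 9.44, against 8.73, 9.03 and 9.41 in the vehicles. Crude MCHM at that dose gave 7.61, 7.98 and 8.92 against 7.73, 8.16 and 8.65. The ranges overlapped in every set.

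The pooled within-group SD of liver Gadd45a was 0.63 in the MCHM set, 0.66 in the crude MCHM set and 0.76 in the PPH set. These stood at percentiles 99.3, 99.5 and 99.6 of the genes tested, whose median SD was 0.15 to 0.16. In kidney its SD was 0.15 in the MCHM and 0.16 in the PPH set, at percentiles 59.2 and 60.9. In the crude MCHM set it was 0.32, at percentile 92.4, with 1 of 3 kidneys at 300 mg/kg reading 8.21 beside 9.42 and 9.38.

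The widest difference of kidney Gadd45a, -0.47 ± 0.24 (SE; adjusted p = 0.999, limma), was at 300 mg/kg crude MCHM and holds that low kidney. Its smallest unadjusted p was at 100 mg/kg PPH. The values of 9.53, 9.58, 9.52 and 9.68 all lay above the vehicles, which read 9.28, 9.44, 9.38, 9.43 and 9.28. The difference was 0.22 ± 0.10 (SE), with an unadjusted p of 0.0479 and an adjusted p of 0.665 (limma). At 500 and 1000 mg/kg PPH it was 0.07 and -0.05, so it did not grow with dose. At 100 mg/kg PPH 2.11% of all genes did not overlap with the vehicles.

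Cdkn1a, the cyclin-dependent kinase inhibitor, accounted for 6 of the 9 comparisons at an unadjusted p under 0.05, and in liver these lay at the low doses. The 5 MCHM vehicle livers read 8.59, 8.49, 8.35, 8.52 and 8.78 log2 units. At 0.1 mg/kg the values were 8.25, 7.45, 8.11 and 7.08, at 1 mg/kg 8.35, 7.09, 8.83 and 7.00, and at 10 mg/kg 7.65, 7.59, 8.16 and 7.52. All livers at 0.1 and 10 mg/kg lay below the lowest vehicle, while those at 1 mg/kg split into a high and a low pair. At 0.1 and 10 mg/kg, 1.48% and 2.43% of all genes did not overlap with the vehicles.

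The differences were -0.82, -0.73 and -0.82 (SE 0.28 each), with unadjusted p of 0.00615, 0.0137 and 0.00642 and adjusted p of 0.999, 0.825 and 0.716 (limma). At 100, 300 and 500 mg/kg the ranges returned towards the vehicle, with medians of 8.37, 8.14 and 8.24 against 8.52. The difference at 500 mg/kg was -0.29 ± 0.28. A second, dimmer Cdkn1a probe set, 1387391_at, gave -0.65, -0.69 and -0.68 at the low doses.

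Under crude MCHM the low-dose livers leaned upward. Vehicle livers read 7.67, 8.15, 7.63 and 7.64, those at 0.1 mg/kg 8.04, 8.56 and 8.25, and those at 10 mg/kg 8.13, 7.88, 8.44 and 8.53. The differences were 0.51 ± 0.17 and 0.48 ± 0.16 (SE), with adjusted p of 0.559 and 0.649 (limma). At 1 mg/kg, between these doses, the difference was 0.01, and at 500 mg/kg 0.12 ± 0.16. At 0.1 and 10 mg/kg the vehicle at 8.15 lay among the treated values, and at 1 and 500 mg/kg it lay above all of them.

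PPH livers had Cdkn1a between 7.60 and 8.997 in the treated groups, and the vehicles ran from 7.10 to 8.34 (n = 5). The difference was 0.47 ± 0.27 (SE) at 500 and 0.15 ± 0.27 at 1000 mg/kg, and neither passed the threshold. The pooled within-group SD of liver Cdkn1a was 0.44 in the MCHM and 0.43 in the PPH set, at percentiles 98.2 and 97.8, and 0.23 in the crude MCHM set, at percentile 84.7.

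In kidney the only Cdkn1a comparison at an unadjusted p under 0.05 was at the highest dose of PPH. Vehicle kidneys read 6.50, 6.44, 6.42, 6.59 and 6.20, and those at 1000 mg/kg 6.22, 6.05, 6.21 and 5.76. The difference was -0.37 ± 0.12 (SE), a 1.29-fold lower level, with an unadjusted p of 0.00665 and an adjusted p of 0.135 (limma), the smallest of any member. The difference at 500 mg/kg was 0.12, and the trend over dose ranks was -0.04 ± 0.02 per rank (adjusted p = 0.481).

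Groups that did not overlap with their vehicle were found in 9 of the 136 member comparisons, where this held for 5.87% of all gene comparisons. They were liver Cdkn1a at 0.1 and 10 mg/kg MCHM, liver Mdm2 at 100 and 500 and liver Ccng1 at 300 mg/kg crude MCHM, kidney Mdm2 at 0.1, 100 and 500 mg/kg crude MCHM, and kidney Gadd45a at 100 mg/kg PPH. The pooled share is near the background, and 2 of the 9 rest on kidney groups of 2 arrays. In the comparisons named, the share of all genes without overlap ran from 1.48% to 19.5%.

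The vehicle rats set the scale for all of this, so they were compared between tissues and between sets. In liver the genes lay at 8.05 ± 0.51 (Cdkn1a), 7.73 ± 0.19 (Mdm2), 7.92 ± 0.20 (Ccng1) and 8.80 ± 0.60 (Gadd45a) log2 units (SD, n = 14). In kidney they lay at 6.44 ± 0.23, 8.45 ± 0.14, 10.04 ± 0.10 and 9.44 ± 0.12 (SD, n = 13). Intensities depend on the probe set, so levels are compared for a gene across tissues and not between genes.

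Ccng1 was 4.33-fold higher in kidney than in liver (log2 difference 2.11 ± 0.06, SE; adjusted p = 7.11e-24, limma), and no kidney overlapped a liver. Mdm2 was 1.65-fold higher (0.72 ± 0.07; adjusted p = 5.77e-11), and Gadd45a was 1.54-fold higher (0.62 ± 0.14; adjusted p = 0.000266); for both, the highest livers overlapped the kidneys. Cdkn1a was 3.07-fold lower in kidney (-1.62 ± 0.14; adjusted p = 1.07e-11), with no overlap. Such a call was made for 83.1% of all genes, so 4 of 4 members is close to what most genes did.

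**Figure D3:**
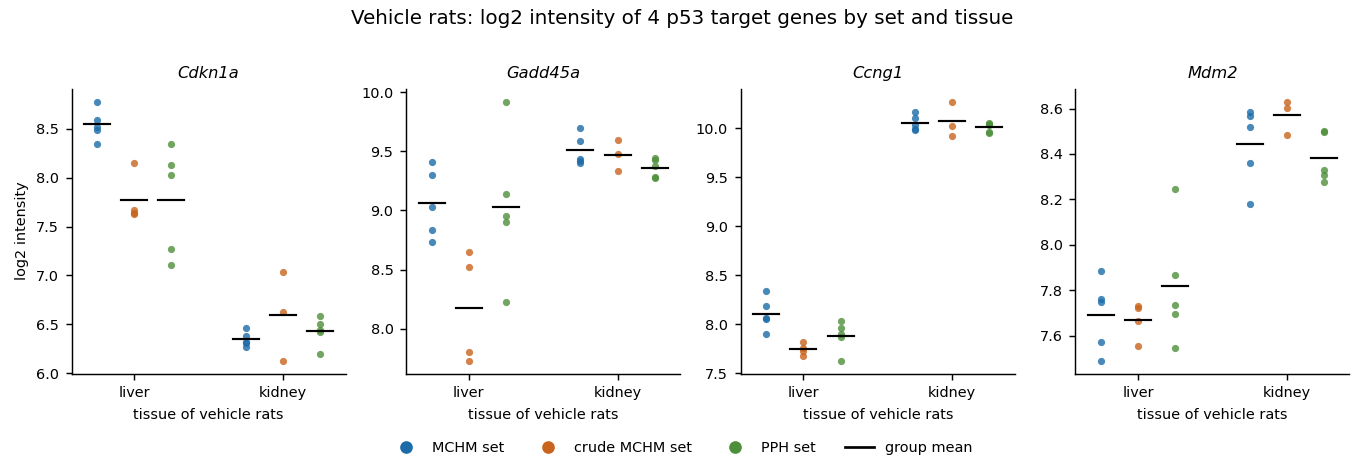
Log2 intensity (vertical axes) of the 4 genes in the vehicle rats of each set, by tissue, with 1 point per rat and bars for group means. In liver the Cdkn1a points of the MCHM set stand above those of the other sets, its Ccng1 points stand above those of the crude MCHM set and overlap those of the PPH set, and Ccng1 is higher in every kidney than in any liver.

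Between the vehicle groups of the 3 sets, which had the same corn oil treatment, Cdkn1a and Ccng1 differed in liver. The MCHM vehicles, at 8.55 ± 0.16 for Cdkn1a (SD, n = 5), all lay above the crude MCHM vehicles at 7.77 ± 0.25 (n = 4) and, at their lowest of 8.35, just above the highest PPH vehicle at 8.34. The differences were 0.77 ± 0.25 (SE; adjusted p = 0.0308) and 0.77 ± 0.24 (adjusted p = 0.0149, limma). The PPH vehicles themselves split, with 3 livers from 8.03 to 8.34 and 2 at 7.27 and 7.10.

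Ccng1 was higher in the MCHM vehicles by 0.36 ± 0.07 over the crude MCHM vehicles (adjusted p = 0.000561) and by 0.23 ± 0.07 over the PPH vehicles (adjusted p = 0.0148, limma). Both calls fell within a wide shift of the sets: 11.4% and 17.4% of all liver genes were called in these pairs, and 2.55% between the crude MCHM and PPH vehicles, where 0 of 4 members were called. In kidney 22.3%, 31.5% and 1.76% of genes were called in the same pairs and 0 of 4 members in each, also 0 at an unadjusted p under 0.05. Of 11501 kidney genes, 3925, 4739 and 1320 lay under that value in these pairs.

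Of these 4 calls 3 were lost without single livers. The call of Ccng1 against the crude MCHM vehicles was kept under each alternative and without any 1 liver, with an adjusted p of at most 0.00529. That of Cdkn1a against the crude MCHM vehicles was lost when the values were quantile normalized again (adjusted p = 0.0567) and without any 1 of 5 livers, MCHM vehicle replicates 4 and 7 (0.0519 and 0.0716) and the 3 crude MCHM vehicles other than the one at 8.15 (0.0751, 0.0818 and 0.0874). That of Cdkn1a against the PPH vehicles was lost without the PPH vehicle at 7.27 or the one at 7.10 (adjusted p = 0.0685 and 0.0864). That of Ccng1 against the PPH vehicles was lost without MCHM vehicle replicate 4 or the PPH vehicle that had Cdkn1a at 7.27 (0.0971 and 0.107). The differences kept their sign in each case, from 0.60 to 0.76 for Cdkn1a and at 0.17 for Ccng1.

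The chemicals were compared at matched doses, as the difference of their responses, in 28 pairs over both tissues. With limma no member was called in 112 tests, and 10 had an unadjusted p under 0.05. Per pair, 334 to 1152 of 11624 genes in liver and 453 to 1609 of 11501 in kidney lay under that value. Among all genes 0.0086% and 0.0344% were called for MCHM against PPH in liver at 10 and 500 mg/kg, 0.0261% for MCHM against crude MCHM and 0.0956% for crude MCHM against PPH in kidney at 500 mg/kg, and 0% in the other pairs.

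The widest gaps were those of liver Cdkn1a at low doses. MCHM minus crude MCHM was -1.33 (95% interval -2.09 to -0.58) at 0.1 mg/kg and -1.29 (-2.02 to -0.57) at 10 mg/kg, with adjusted p of 1.00 and 0.527. MCHM minus PPH was -1.24 (-1.95 to -0.54) at 10 mg/kg, adjusted p = 0.231. Each of these uses the MCHM vehicle livers, which were the highest.

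At 500 mg/kg, the highest dose all chemicals share, liver Mdm2 differed by -0.09 (-0.40 to 0.22) between MCHM and crude MCHM, by 0.04 (-0.26 to 0.34) between MCHM and PPH and by 0.13 (-0.17 to 0.44) between crude MCHM and PPH. Liver Ccng1 differed by -0.16 (-0.38 to 0.06), -0.17 (-0.38 to 0.04) and -0.01 (-0.22 to 0.21) in the same pairs. Each of these intervals lay within 1.5-fold in either direction. In kidney the response of Mdm2 to crude MCHM was lower than that to MCHM by 0.35 (0.05 to 0.65, adjusted p = 0.285, limma) and than that to PPH by 0.35, with an adjusted p of 0.442.

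Whether liver and kidney responded differently was tested at the highest dose of each chemical. No member was called in 12 tests, where limma called 0.0817% (MCHM), 0.0636% (crude MCHM) and 0.763% (PPH) of all genes. Mdm2 under 500 mg/kg crude MCHM came nearest, higher than vehicle in liver by 0.23 and lower in kidney by the 0.28 given above. The difference of the responses was -0.51 (95% interval -0.83 to -0.19), with an unadjusted p of 0.00262 and an adjusted p of 0.144, the only one of the 12 under 0.05 unadjusted. Of 11010 genes, 910 (MCHM), 1439 (crude MCHM) and 1514 (PPH) lay under 0.05 unadjusted.

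Clock genes moved with Cdkn1a in liver. By Pearson's r over 81 livers, each expressed against its own vehicle mean, the 3 genes most like Cdkn1a were Bmal1 (r = 0.77), a core activator of the circadian clock, Nfil3 (0.74), a repressor in its output, and Lgalsl (0.74), a galectin-like protein. The median r over 11204 genes was 0.05. Within sets Bmal1 had 0.79 (MCHM), 0.21 (crude MCHM) and 0.69 (PPH), and after removing group means r was 0.63. These are descriptions over arrays that share the vehicle means and the normalization.

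In the MCHM vehicle livers Bmal1 was 7.23 ± 0.18 log2 units (SD, n = 5), and at 0.1, 1 and 10 mg/kg it was 6.74 ± 0.70, 6.72 ± 0.67 and 6.88 ± 0.32 (n = 4 each). Nr1d2, a repressor that peaks opposite to Bmal1, was 7.53 ± 0.50 in vehicles and 8.57 ± 0.28, 8.43 ± 0.90 and 8.68 ± 0.23 at these doses. Dbp, an output gene of the same phase as Nr1d2, was 4.85 ± 0.42 and then 6.03 ± 1.36, 6.47 ± 1.85 and 6.45 ± 0.67. The 3 low-dose groups thus had lower means of Cdkn1a and Bmal1 and higher means of Nr1d2 and Dbp than the vehicles.

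At 100, 300 and 500 mg/kg Bmal1 (7.28, 7.20 and 7.27) and Nr1d2 (7.48, 7.63 and 7.48) stood near the vehicle again. Cdkn1a came part of the way back, with means of 8.39, 8.19 and 8.26 against 8.55 in vehicles. At 300 mg/kg 3 of 4 livers still lay below every vehicle for Cdkn1a. The mean of the 9 measured clock genes, which differ in phase, ranged from 6.30 to 6.77 in the vehicles, 6.79 to 7.14 at 0.1, 6.53 to 7.25 at 1 and 6.97 to 7.08 at 10 mg/kg. The PPH vehicles, in which Cdkn1a split, had Bmal1 from 5.96 to 7.65. Between vehicle groups, Nr1d2 averaged 7.53 (MCHM), 8.03 (crude MCHM) and 8.82 (PPH), and Dbp 4.85, 5.30 and 6.09. Bmal1, at 7.23, 7.26 and 7.01 in the same order, and Clock, at 8.21, 8.24 and 8.19, differed less. The hour at which each rat was killed was not analysed here, and the part of the clock in the Cdkn1a values was not tested.

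**Figure D4:**
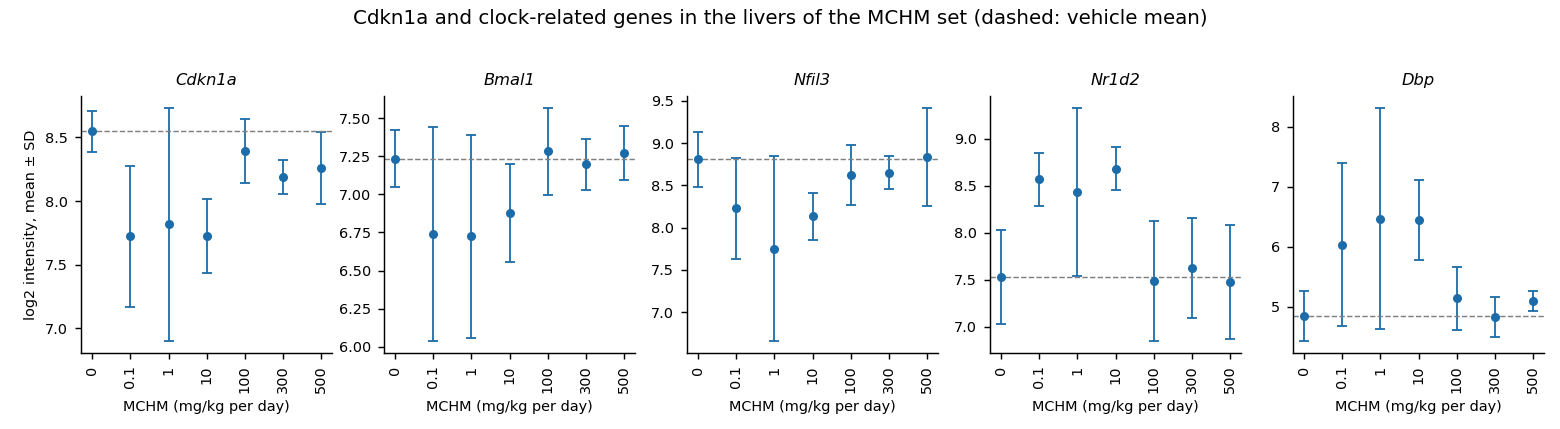
Mean ± SD of the log2 intensity (vertical axes) of Cdkn1a and of the clock-related genes Bmal1, Nfil3, Nr1d2 and Dbp in livers of the MCHM set, by dose in mg/kg (horizontal axes, n = 5 at 0 and 4 at each other dose), with the vehicle mean dashed. At 0.1 to 10 mg/kg Cdkn1a, Bmal1 and Nfil3 lie below the vehicle mean while Nr1d2 and Dbp lie above it, and at 100 to 500 mg/kg all 5 lie closer to it.

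Liver Gadd45a had other neighbours. Its most similar genes were Gadd45g (r = 0.80), a paralog induced by stress, Trib1 (0.73), a pseudokinase, and Dusp1 (0.70), an immediate early phosphatase, over a median of -0.01. After removing group means these were 0.85, 0.79 and 0.73, and for Gadd45g the values within sets were 0.81, 0.78 and 0.85. These genes were picked by r over the same livers, so the values describe the likeness and do not test it. In kidney its leading genes were Ap1s1 (0.74), Glod5 (0.70) and Msra (0.67), and those rested on the crude MCHM set, with Ap1s1 at 0.94 there against 0.15 and 0.33 in the others.

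**Figure D5:**
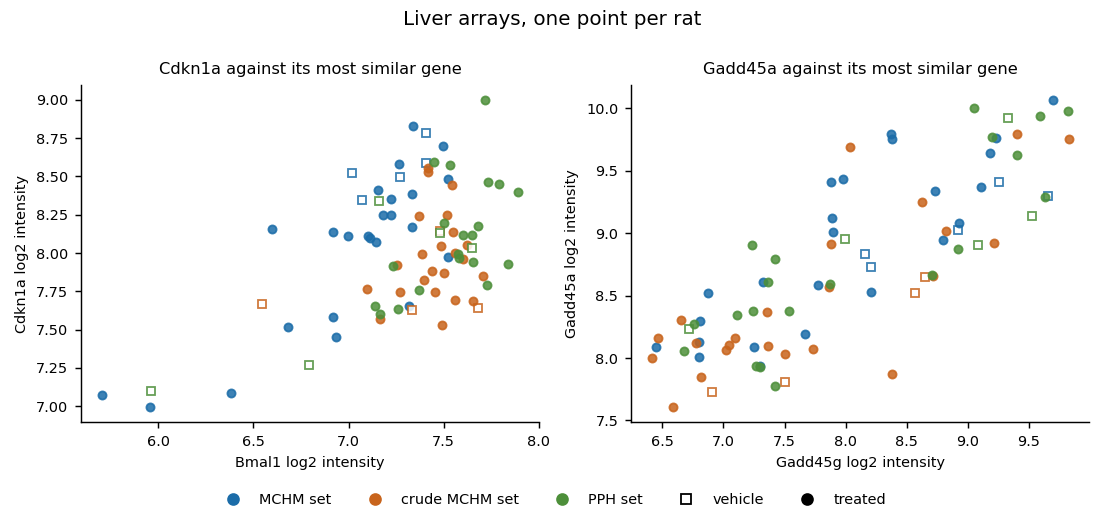
Log2 intensity of Cdkn1a against Bmal1 and of Gadd45a against Gadd45g, the gene most like each, in 81 liver arrays (1 point per rat, open squares for vehicles, filled circles for treated rats, colours for sets). The 4 livers lowest in Cdkn1a (7.00 to 7.10) are also the 4 lowest in Bmal1 (5.70 to 6.38), and high Gadd45a goes with high Gadd45g in all 3 sets.

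Liver Mdm2 was most like Gdf15 (r = 0.54), a stress-induced cytokine that is itself a p53 target, Slc35a5 (0.49) and Ddit3 (0.48), the CHOP factor of the integrated stress response. Liver Ccng1 was most like Commd8 (0.59), Dnajb9 (0.58) and Golph3l (0.58). In kidney Cdkn1a was led by Mapkapk2, Idh3a and Akt2 (0.68 each), Mdm2 by Errfi1 (0.74), Mafg (0.73) and C2cd2l (0.72), and Ccng1 by Acp5 (0.57), Hdgfl3 (0.53) and Dcun1d5 (0.53). No member was among the 3 genes most like another member, though Gadd45a ranked 9 of 11204 genes for liver Mdm2 (r = 0.46).

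The members did not vary as a unit between rats either. In 16 relations of values with the group means removed, Mdm2 and Gadd45a in liver were correlated (Pearson's r = 0.51, adjusted permutation p = 0.00016; Spearman's rho = 0.45, adjusted p = 0.00128; 81 rats). Without the 2 farthest livers r was 0.49, and within sets it was 0.32 (MCHM), 0.53 (crude MCHM) and 0.63 (PPH). The same pair in kidney had r = 0.30 (adjusted p = 0.0596) and rho = 0.40 (adjusted p = 0.00592), with -0.22 within the crude MCHM set. Cdkn1a and Gadd45a had r = -0.18 in liver (adjusted p = 0.251) and -0.20 in kidney (0.251).

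Across the tissues of 65 rats with both arrays, Cdkn1a in liver and kidney had r = 0.37 (adjusted permutation p = 0.0211) and rho = 0.29 (0.0825), and without the 2 farthest rats r was 0.28. Gadd45a had r = 0.27 (0.0883) and rho = 0.34 (0.0308). Within sets r was 0.44, 0.11 and 0.50 for Cdkn1a and 0.47, -0.12 and 0.47 for Gadd45a (MCHM, crude MCHM, PPH). For Mdm2 and Ccng1 no relation between tissues passed.

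The wider p53 and DNA damage genes were taken from 6 lists and counted at the highest dose of each chemical. Of the regulators of p53, such as Mdm4, Atm and Chek1, 0 of 10 tested in liver were called under any chemical, and 0 of 8 or 9 in kidney, and their medians lay between -0.08 and 0.09 log2 units. The p53 targets of cell death, such as Bbc3, Fas and Phlda3, also had 0 calls, of 12 in liver and 10 in kidney. Their median was -0.10 under PPH in kidney, where all 10 differences were below 0, and the median of all genes was -0.03. The targets of metabolism and stress, such as Sesn2 and Gdf15 (8 tested), and the relatives of the members, such as Gadd45b and Ccng2 (9 or 10 tested), had 0 calls in each. At an unadjusted p under 0.05 each of these 4 lists had 0 to 4 genes per comparison. Of the 11216 to 11402 genes tested at a highest dose, 1516 to 1638 in liver and 1047 to 1739 in kidney lay under that value.

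Calls came from 3 genes of repair and replication under PPH. In kidney at 1000 mg/kg, Pcna, the sliding clamp of DNA replication, fell by 0.32 ± 0.05 log2 units (adjusted p = 0.000837), and H2ax, the histone variant that is phosphorylated at DNA breaks, fell by 0.44 ± 0.09 (adjusted p = 0.00652, limma). They were 1 of 6 tested p53 targets of arrest and repair and 1 of 13 damage signalling and repair genes, where 2.03% of all genes were called, and 0 rose. In liver at the same dose Parp1, a sensor of DNA strand breaks, rose by 0.26 ± 0.06 (adjusted p = 0.0334), as 1 of 12 repair genes, where 1.75% of all genes were called. The 3 trends over dose were called too. With 1 array left out Pcna and H2ax were called in 9 of 9 fits (adjusted p at most 0.00502 and 0.0374, limma), whereas the Parp1 call at 1000 mg/kg was lost in 7 of 9 (adjusted p up to 0.139). Under the other settings Pcna was called in 7 of 7, H2ax in 6 of 7 and Parp1 in 3 of 6. Under MCHM and crude MCHM 0 genes of these lists were called in either tissue.

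Pcna and H2ax went with a fall in proliferation genes. In kidney at 1000 mg/kg PPH, 11 of 13 genes of dividing cells fell, with a list median of -1.01 where that of all genes was -0.03, among them Ccna2 (-1.97), Mki67 (-1.54), Ccnb2 (-1.61), Cdk1 (-1.61) and Top2a (-1.33). Cdkn1a, which inhibits the kinases these cyclins serve, was lower by the 0.37 given above and not called. In liver at this dose Cdk1 (-1.98) and Ccna2 (-1.76) fell, 2 of 13, while Cdkn1a differed by 0.15. With 1 liver left out the Ccna2 call was lost in 9 of 9 fits (adjusted p up to 0.128, limma) and that of Cdk1 in 0 of 9. Under 500 mg/kg MCHM in liver Nusap1 (-0.70) fell, 1 of 12, a call lost in 7 of 9 fits with 1 liver left out (adjusted p up to 0.107, limma), and Cdkn1a differed by -0.29. How far the fall in proliferation genes and the values of Pcna and H2ax share a source was not tested.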

How the data were processed

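Affymetrix Rat Genome 230 2.0 arrays were deposited as log2 values from RMA, per the submitters' processing notes, with 31099 probe sets per array; the RMA version was not given in the sources used here, nor whether sets or tissues were normalized together. For arrays, the number per group limits the precision. Annotation gave 20832 probe sets a single symbol, 436 several (not used) and 9831 none (not named here).

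The brightest probe set per gene and tissue was kept, and a gene was tested if above the 40th percentile of its tissue's values (4.69 in liver, 4.66 in kidney) in 3 or more arrays of a fit. Differences were tested with limma 3.58.1 (lmFit, eBayes; R 4.3.3, data.table, version 1.17.8), 1 fit per tissue and chemical, two-sided, with Benjamini-Hochberg adjustment over all genes and 95% intervals. Matched doses and vehicles were fitted over all groups of a tissue, and tissues over both. Correlations used 100000 permutations, two-sided. The code was tested on simulated data. Replicates are rats numbered in the labels. Liver and kidney share those numbers because both came from 1 rat; in 65 rats the deviations of all genes correlated between the tissues at a median r of 0.16 (MCHM), 0.11 (crude MCHM) and 0.14 (PPH).

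Named genes are the 6 members, list genes called at a highest dose or trend (up to 8 per tissue and chemical) and the 3 genes most like each member by Pearson's r. Asns, called at 300 mg/kg crude MCHM, is named in addition. The members and lists were chosen with earlier results of these data known. Figures were drawn with matplotlib 3.10.9 (Python 3.11.15). Alternatives are given at the end.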

Additional observations from a re-analysis of the deposited data

Results flagged for a closer look

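In 8 of 120 groups of 4 or 5 arrays, 1 array stood apart from the others by Dixon's test, where chance gives about 1 in 20 groups. The ratio given is the gap to the nearest array over the range of the group, each of 4 arrays. For Cdkn1a in liver these were the highest array at 100 mg/kg PPH (8.997 against 7.94 log2 units, ratio 0.878), of the crude MCHM vehicles (8.15 against 7.67, ratio 0.929) and at 100 mg/kg crude MCHM (8.24 against 7.75, ratio 0.892). For Gadd45a in liver they were the highest array at 1 mg/kg MCHM (9.37 against 8.12, ratio 0.912) and at 100 mg/kg MCHM (9.64 against 8.61, ratio 0.922). For Gadd45a in kidney they were the lowest array at 10 mg/kg MCHM (9.39 against 9.55, ratio 0.897) and at 500 mg/kg MCHM (9.35 against 9.64, ratio 0.846). For Ccng1 in liver it was the lowest array at 300 mg/kg MCHM (7.79 against 8.03, ratio 0.915).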

How the results depend on the processing

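The 0 calls of the members against vehicle and over dose ranks stayed 0 in 1140 results under other settings (1 fit for all chemicals, all genes unfiltered, probe sets averaged per gene, quantile normalization again, array weights, covariates for the beta-actin 3'–5' difference or fat markers, and other probe sets, chosen after seeing the data; lowest adjusted p 0.0805) and in 1700 results with 1 array left out (lowest adjusted p 0.0701, limma). Signs of uncalled differences turned in 11 to 28 results per setting, except in 0 with 1 fit or no filter, and in 165 of the 1700. Between vehicle groups, the liver count of 4 ranged from 2 to 4 with 1 array left out, being 2 without MCHM replicate 4 or the PPH vehicle with Cdkn1a at 7.27, and the kidney count of 0 became 1 with the mean of all probe sets (Mdm2, MCHM above PPH by 0.30 ± 0.09, adjusted p = 0.00792). With the rat as a replicate block, 4 of 4 tissue levels and 0 of 12 tissue responses were called, as without it. Counts over all genes moved more: at 500 mg/kg crude MCHM in kidney 0 became 238 to 249 under 2 other settings, and the liver PPH trend ranged from 21 to 289 around 150. The cause was not tested. The number of arrays, 2 to 5 per group, limits the precision.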

Other observations

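Outside the p53 lists, Tat, a glucocorticoid-induced enzyme of tyrosine breakdown, rose in liver at 500 mg/kg MCHM by 1.39 ± 0.30 log2 units (SE; adjusted p = 0.0298, limma), and its trend was called too. With 1 liver left out the Tat call at 500 mg/kg was lost in 7 of 9 fits (adjusted p up to 0.107, limma). Its trend was lost in 15 of 29. Ier3, an immediate early gene, fell in kidney at 1000 mg/kg PPH by 0.49 ± 0.12 (adjusted p = 0.0334, limma), a call lost in 6 of 9 fits with 1 kidney left out. Of genes of dividing cells, Ccnb2 fell over dose ranks in MCHM kidneys by 0.11 per rank (adjusted p = 0.0475, limma). Nusap1, Mki67 and Cdk1 fell over dose ranks in MCHM livers by 0.10, 0.16 and 0.14 per rank (adjusted p = 0.0131, 0.0255 and 0.037). With 1 array left out the Ccnb2 trend was lost in 17 of 28 fits, and those of Nusap1, Mki67 and Cdk1 in 0, 2 and 13 of 29. In PPH kidneys 12 of 13 such genes fell over dose ranks. Of these, Birc5 was lost in 17 of 24 fits with 1 kidney left out and Aurka in 2, while the others were kept in each. The Atf4 stress response list (8 or 9 tested), to which liver Mdm2's neighbour Ddit3 belongs, had 0 calls by limma at any highest dose or trend. Below the highest dose, its gene Asns was called in liver at 300 mg/kg crude MCHM (1.36 higher, adjusted p = 0.0364, limma). That call was lost in 7 of 8 fits with 1 liver left out.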
